A study of Mus musculus with 20 samples.

Results

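The miR-99, miR-100 and miR-125 families were followed through 4 stages of chemically induced skin tumours in the mouse. The members are all table entries of type miRNA whose names begin with miR-99a, miR-99b, miR-100, miR-125a or miR-125b (with the mouse prefix mmu), which gave 11 of 1172 entries, any arm or copy included. The libraries came from skin biopsies of FVB/N mice, an inbred strain often used for skin tumour work. Healthy skin treated with acetone, the solvent, was the baseline, and the other groups, all treated with DMBA and PMA, were hyperplastic skin, papillomas, which are benign, and cutaneous squamous cell carcinomas (cSCC), which are malignant. DMBA is a mutagen and PMA a phorbol ester that makes the epidermis proliferate. Each group had 5 libraries, numbered in the labels 2, 3, 4, 5 and 7 for healthy skin, 1, 2, 5, 7 and 8 for hyperplastic skin, 1, 3, 4, 5 and 6 for papillomas, and 1, 2, 3, 4 and 6 for cSCC, and values are listed in that order. Since the labels do not state that every biopsy is from a separate mouse, the tests reflect only the spread among these biopsies. Against healthy skin, the lesion and the DMBA and PMA treatment cannot be told apart.

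A miRNA is a short RNA that guides Argonaute proteins to messenger RNAs and lowers their output, and its choice of targets depends mostly on the seed, bases 2 to 8 from its 5′ end. Each hairpin precursor can give a 5p arm and a 3p arm, of which usually 1 is abundant. The miR-99 and miR-100 family is known for targets in the IGF1R and mTOR growth pathway. miR-125 is the vertebrate relative of lin-4, the first miRNA described, in Caenorhabditis elegans. In mouse skin miR-125b is known to hold back differentiation of hair follicle stem cells. In vertebrates a miR-99 or miR-100 gene, a let-7 gene and a miR-125 gene lie together in shared loci.

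The 5p arms, which carried most counts, form 2 seed groups. Their mature sequences are shown because the results separate miRNAs that have the same seed, printed in capitals. They were taken 5′ to 3′ from RefSeq (GRCm38.p6), which held all 11 members. The last line is miR-351-5p, an X-linked miRNA that has the seed of miR-125 and was the single tested relative outside the families with a 5p seed of the members.
miR-99a-5p: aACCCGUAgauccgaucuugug
miR-100-5p: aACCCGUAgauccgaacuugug
miR-99b-5p: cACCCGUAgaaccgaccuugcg
miR-125b-5p: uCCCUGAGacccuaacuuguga
miR-125a-5p: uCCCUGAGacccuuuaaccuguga
miR-351-5p: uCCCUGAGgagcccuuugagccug
The sequences of miR-99a-5p and miR-100-5p differ by 1 base, U16A (miR-99a-5p base first, counted from its 5′ end). miR-99a-5p and miR-99b-5p differ by A1C, U11A, U16C and U21C. miR-125b-5p and miR-125a-5p lie 3 edits apart. How reads that match several members were counted is not given in the sources used here, so that miR-99a-5p and miR-100-5p could share reads, as could the pair of miR-125 5p arms.

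The 3p arms are shown because they tell apart hairpins whose 5p arms are alike. miR-125b-5p is made from 2 loci, but miR-125b-1-3p and miR-125b-2-3p come from 1 hairpin each and do not share a seed.
miR-99a-3p: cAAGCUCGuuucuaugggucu
miR-99b-3p: cAAGCUCGugucuguggguccg
miR-100-3p: aCAAGCUUgugucuauagguau
miR-125b-1-3p: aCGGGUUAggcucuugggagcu
miR-125b-2-3p: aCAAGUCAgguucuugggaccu
miR-125a-3p: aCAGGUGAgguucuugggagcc
miR-99a-3p and miR-99b-3p share the seed AAGCUCG, while the other 3p arms each have a seed of their own. miR-125b-2-3p and miR-125b-1-3p differ by A3G, A4G, C7U, U11C and C20G, counted from the 5′ end with the base of miR-125b-2-3p first.

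The table's mm9 coordinates, whose intervals run slightly past the mature ends, place the members in 3 loci, each on the plus strand in RefSeq. The miR-99a locus on chromosome 16 holds miR-99a-5p (chr16:77599184-77599207), let-7c-5p 732 bases after it (chr16:77599916-77599939) and, 46607 bases further, the miR-125b-2 hairpin with miR-125b-5p (chr16:77646523-77646546) and miR-125b-2-3p (chr16:77646562-77646585). In GENCODE M21 the noncoding host transcript Mir99ahg spans these miRNAs. The miR-100 locus on chromosome 9 holds miR-100-5p (chr9:41339519-41339542), let-7a-2-3p (chr9:41344859-41344881) and miR-125b-1-3p (chr9:41390062-41390085) inside the noncoding host gene Mir100hg of RefSeq. The miR-99b locus on chromosome 17 is the compact one. It holds miR-99b-5p (chr17:17967157-17967180), let-7e-5p 172 bases on (chr17:17967329-17967352) and miR-125a-5p 451 bases after that (chr17:17967780-17967805), within Spaca6, a protein-coding gene needed for sperm and egg fusion.

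All 11 members passed the filter on low counts, as did 866 of 1172 miRNA entries. Levels are CPM, counts divided by the TMM-scaled library total of miRNA counts and multiplied by 1e6. Counts of miRNA entries per library ran from 2884600 to 4922110 in healthy skin, 3142840 to 6904690 in hyperplastic skin, 1061560 to 2370770 in papillomas and 1615560 to 2904330 in cSCC. Fold changes come from edgeR's quasi-likelihood test with Benjamini-Hochberg adjustment over 866 miRNAs, with 0.05 as the threshold, and are log2 values ± SE. They depend on how libraries are scaled. A fit to the 293 miRNAs of at least 50 CPM put the fold changes of the same miRNAs higher by a median of 0.86 for papilloma minus healthy and 0.76 for cSCC minus healthy, and lower by 0.10 for cSCC minus papilloma. Most fold changes of members are therefore given from both fits, and the second is called the fit to abundant miRNAs. It holds 8 members, without miR-125a-3p, miR-125b-1-3p and miR-100-3p.

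The families made up 7.32 ± 0.72% of miRNA counts in healthy skin, 7.18 ± 1.42% in hyperplastic skin, 4.46 ± 0.70% in papillomas and 2.93 ± 0.36% in cSCC (SD, n = 5 each). The highest papilloma library, at 5.50%, lay below the lowest healthy library, at 6.29%, and the highest cSCC library, at 3.49%, below the lowest papilloma library, at 3.79%. Averaged over the 20 libraries, miR-99a-5p had 28931 CPM and ranked 9 of 866. miR-125b-5p ranked 11 with 18263 CPM and miR-125a-5p ranked 25 with 8105 CPM, and miR-99b-5p and miR-100-5p followed with 2121 and 1657 CPM. miR-99a-3p had 252 CPM, miR-99b-3p 193 CPM and miR-125b-2-3p 77.2 CPM. miR-125a-3p, miR-125b-1-3p and miR-100-3p were rare, with 20.3, 16.5 and 6.62 CPM.

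The families did not move as 1 block. miR-99a-5p, miR-99a-3p, miR-100-5p, miR-125a-5p and miR-125b-2-3p fell in both tumour stages, in both fits, in each of the 9 alternative settings tried and without any single library. miR-125b-5p fell in both tumour stages, but the call was lost for both in the fit to abundant miRNAs and for papillomas also with unscaled totals (adjusted p = 0.144). The miR-99b arms and miR-125b-1-3p did not follow. miR-99b-3p and miR-125b-1-3p were higher in cSCC than in healthy skin, but neither call was firm. The call was lost without any 1 of 7 libraries for miR-99b-3p and any 1 of 2 for miR-125b-1-3p. With no low-count filter both calls were lost too (edgeR, adjusted p = 0.209 and 0.053). Across the 4 groups 9 of 11 members differed by the edgeR F test (adjusted p 2.3e-08 to 0.0328), against 55.4% of the 866 miRNAs. The exceptions were miR-125a-3p (adjusted p = 0.389) and miR-100-3p (adjusted p = 0.218). In the fit to abundant miRNAs miR-125b-5p did not pass this test either (edgeR F test, adjusted p = 0.393).

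Between hyperplastic and healthy skin no member passed the edgeR test, and none of the 866 miRNAs did (0%), with 80 at an unadjusted p below 0.05. DESeq2 also called none, with 83 at that unadjusted p. The members' log2 fold changes ran from -0.67 to -0.09, with a median of -0.36 beside -0.15 over all 866. In the fit to abundant miRNAs they ran from -0.47 to 0.12, with a median of -0.08 beside 0.05 over the 293. The hyperplastic libraries were not alike: on the first principal component hyperplastic 7 and 8, at -21.95 and -19.79, lay at or beyond the healthy libraries (-19.78 to -10.80), while hyperplastic 1, 2 and 5 lay between -11.34 and -7.98. Counts of members and ratios against hyperplastic skin are therefore given also without those 2 libraries.

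In papillomas 7 of 11 members were lower than in healthy skin and 0 were higher, where 22.6% of all tested miRNAs were lower and 16.5% higher. In the fit to abundant miRNAs 5 of 8 were lower and 1 was higher, with 20.1% and 29.4% of the 293. In cSCC 6 of 11 members were lower and 2 higher than in healthy skin, where 22.3% of all were lower and 25.1% higher, and in the fit to abundant miRNAs 5 of 8 were lower and 2 higher, with 25.9% and 36.9% of the 293. The members' median fold change was -1.18 in papillomas and -1.10 in cSCC, beside 0.23 and 0.32 over all 866, and in the fit to abundant miRNAs -0.83 and -1.30, beside 0.12 and 0.14 over the 293. Against hyperplastic skin 6 members were lower and 0 higher in papillomas (18.0% and 20.0% of all), and 6 were lower and 2 higher in cSCC (19.2% and 28.5% of all). Without hyperplastic 7 and 8, a change made after seeing the data, 5 members were lower and 1 higher in papillomas (11.7% and 3.63% of all), and 4 were lower and 1 higher in cSCC (15.4% and 10.7% of all).

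Between the tumour stages 3 of 11 members were lower and 2 higher in cSCC than in papillomas, where 2.66% of all tested miRNAs were lower and 8.08% higher. In the fit to abundant miRNAs 4 of 8 were lower and 2 higher, with 12.3% and 13.0% of the 293. The members' median was 0.07, beside 0.04 over all 866, and took the other sign in the fit to abundant miRNAs, at -0.39, beside -0.04 over the 293.

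mmu-miR-99a-5p, the most abundant member, had 56548, 57774, 43132, 52983 and 39364 CPM in healthy skin and 29091, 31552, 35049.8, 53639 and 56809.7 CPM in hyperplastic skin. It had 18794, 20702, 11923, 15330.5 and 10796 CPM in papillomas and 7878, 6433, 10898, 9524 and 10407 CPM in cSCC. Every tumour library lay below every healthy and hyperplastic library, hyperplastic 7 and 8 matched the healthy range, and papilloma 6 alone reached into the cSCC range. The means were 15509 ± 4268 CPM in papillomas and 49960.1 ± 8254 CPM in healthy skin (SD, n = 5 each), a log2 fold change of -1.69 ± 0.25 (edgeR, adjusted p = 1.9e-05; -0.85 ± 0.17 in the fit to abundant miRNAs, adjusted p = 3.5e-04). In cSCC the mean was 9028 ± 1851 CPM, with a fold change against healthy skin of -2.47 ± 0.26 (edgeR, adjusted p = 6.9e-08; abundant fit -1.71 ± 0.17, adjusted p = 1.2e-07). Between cSCC and papillomas the fold change was -0.78 ± 0.25 (edgeR, adjusted p = 0.0427; abundant fit -0.86 ± 0.17, adjusted p = 0.00111). That last call was lost without papilloma 1, papilloma 3 or cSCC 1, at adjusted p of 0.053, 0.084 and 0.0617.

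Its partner arm mmu-miR-99a-3p, cut from the same hairpin, followed it. It had 700.1, 333, 338, 373 and 401 CPM in healthy skin and 292, 362, 338, 497 and 521 CPM in hyperplastic skin, with healthy 2 far above the rest of its group. In papillomas it had 152, 184, 95.4, 90.2 and 89.7 CPM and in cSCC 47.5, 49.0, 65.6, 46.6 and 65.9 CPM. No cSCC library reached the papilloma range and no papilloma library reached the healthy range. The log2 fold change was -1.81 ± 0.28 in papillomas (edgeR, adjusted p = 2.7e-05; abundant fit -0.97 ± 0.23) and -2.97 ± 0.30 in cSCC (edgeR, adjusted p = 3.8e-08; abundant fit -2.19 ± 0.23), both against healthy skin. Between cSCC and papillomas it was -1.15 ± 0.28 (edgeR, adjusted p = 0.00730; abundant fit -1.21 ± 0.23).

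**Figure D1:**
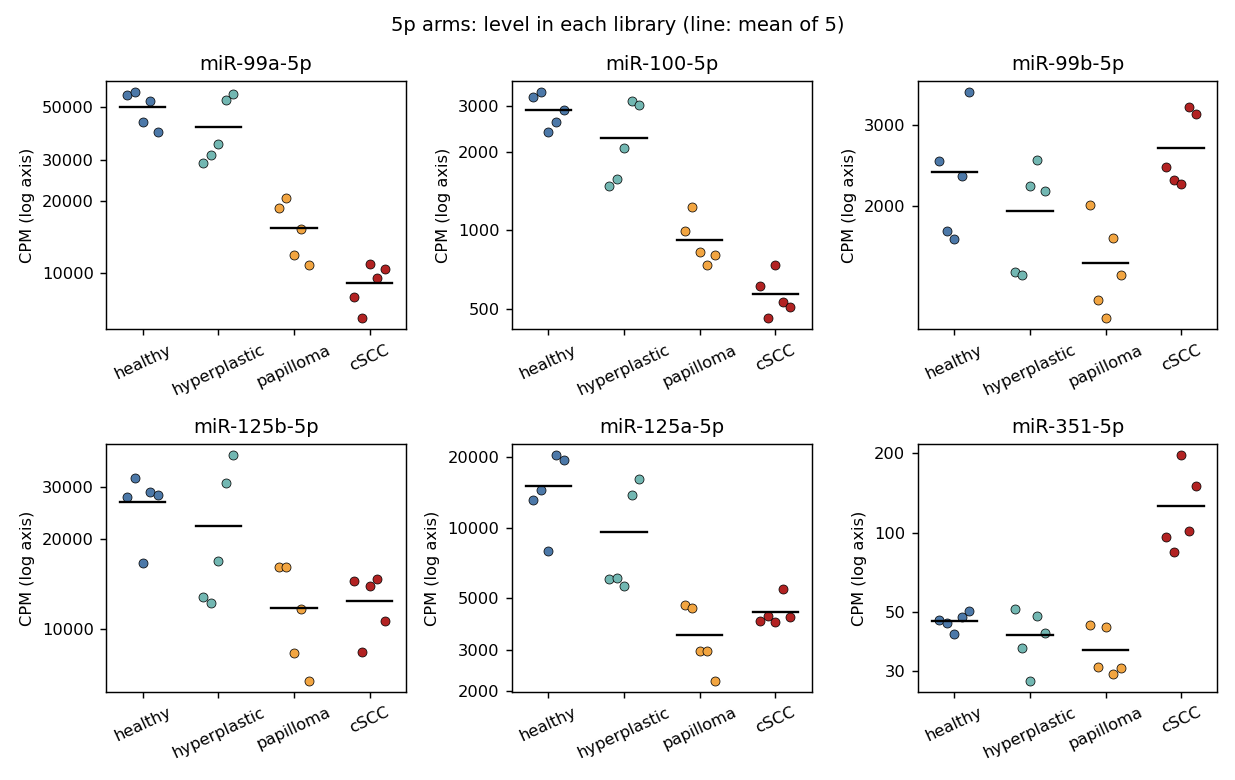
Levels in CPM (log axis) of the 5 abundant 5p arms and of miR-351-5p in each of the 20 libraries, by stage; points are libraries and lines the mean of 5. miR-99a-5p and miR-100-5p step down from papilloma to cSCC, whereas miR-99b-5p is lowest in papillomas on this scale, though not with the scaling of abundant miRNAs or unscaled totals, and miR-351-5p is raised in cSCC.

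miR-125b-2-3p, the arm that marks the miR-125b hairpin of the same locus, had the steepest fall of the members in cSCC against healthy skin, while against hyperplastic skin and papillomas that of miR-99a-3p was steeper. It had 178, 137, 75.3, 154 and 183 CPM in healthy skin and 85.1, 72.6, 81.1, 124 and 192 CPM in hyperplastic skin. The papillomas had 28.0, 42.3, 36.3, 33.2 and 36.9 CPM and the cSCC 12.4, 12.0, 20.6, 8.36 and 31.7 CPM, from counts of 67 to 114 and 19 to 61. All tumour libraries lay below all healthy ones, and cSCC 6 overlapped the papillomas. The fold change against healthy skin was -2.04 ± 0.34 in papillomas (edgeR, adjusted p = 6.5e-05; abundant fit -1.14 ± 0.32) and -3.10 ± 0.36 in cSCC (edgeR, adjusted p = 2.3e-07; abundant fit -2.30 ± 0.33). Between cSCC and papillomas it was -1.06 ± 0.35 (edgeR, adjusted p = 0.0487; abundant fit -1.16 ± 0.33, adjusted p = 0.0119). This difference lost its call without papilloma 3, 4, 5 or 6 or cSCC 1 or 4, at adjusted p of 0.0528 to 0.1. The means of miR-125b-2-3p were 145 and 111 CPM in healthy and hyperplastic skin, but 35.3 and 17.0 CPM in papillomas and cSCC. It thus entered the fit to abundant miRNAs only through the groups where it was high, and that fit is no separate support for its fall.

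mmu-miR-100-5p, whose gene lies on chromosome 9, moved like miR-99a-5p at a lower level. It had 3235, 3369, 2373, 2600.1 and 2896 CPM in healthy skin and 1475, 1574, 2060.3, 3113 and 3018 CPM in hyperplastic skin. It had 991, 1225, 829, 738 and 801 CPM in papillomas and 611, 461, 735, 533 and 507 CPM in cSCC. The tumour stages lay wholly below healthy skin, and each cSCC library lay below each papilloma library, though cSCC 3 and papilloma 5 nearly met. Against healthy skin the fold change was -1.66 ± 0.25 in papillomas (edgeR, adjusted p = 1.9e-05; abundant fit -0.80 ± 0.17) and -2.35 ± 0.26 in cSCC (edgeR, adjusted p = 9.2e-08; abundant fit -1.58 ± 0.17). The difference between cSCC and papillomas, -0.69 ± 0.25, missed the threshold (edgeR, adjusted p = 0.0758) and passed it in the fit to abundant miRNAs (-0.78 ± 0.17, adjusted p = 0.00261). It passed in 6 of the 9 alternative settings, the fit to abundant miRNAs among them, and missed in 3. It also passed without papilloma 4 or 5 or cSCC 2 or 3, at adjusted p of 0.0303 to 0.0496. Its rare partner arm miR-100-3p averaged 9.46 ± 4.54, 6.0 ± 3.38, 6.64 ± 2.23 and 4.40 ± 2.72 CPM in healthy skin, hyperplastic skin, papillomas and cSCC, from 3 to 49 counts per library, and the groups overlapped.

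mmu-miR-99b-5p has the seed of miR-99a-5p but a different course. It had 2511, 1762, 1687, 2320.1 and 3545 CPM in healthy skin and 1433, 1409.6, 2203, 2518 and 2154 CPM in hyperplastic skin, then 2007, 1243, 1133, 1702 and 1406 CPM in papillomas and 2432, 2272, 2227, 3286 and 3179 CPM in cSCC. Healthy libraries overlapped those of both tumour stages, and every cSCC library was above every papilloma library. Between papillomas and healthy skin the direction turned with the scaling: -0.66 ± 0.25 over 866 miRNAs (edgeR, adjusted p = 0.0408) and 0.21 ± 0.19 over abundant miRNAs (adjusted p = 0.371). The first call was lost without healthy 2 or 7 or papilloma 3, 4 or 6, at adjusted p of 0.0514 to 0.139. Between cSCC and healthy skin the values were 0.18 ± 0.25 (edgeR, adjusted p = 0.579) and, over abundant miRNAs, 0.94 ± 0.19 (adjusted p = 3.1e-04), and the sign of the smaller one turned in the fit with no filter on low counts. Between cSCC and papillomas they were 0.84 ± 0.25 (edgeR, adjusted p = 0.0312) and 0.73 ± 0.19 (adjusted p = 0.00774). This difference stayed positive in all settings and leave-one-out fits, at 0.41 to 0.92, but without any 1 of 9 libraries (all but papilloma 1) it missed the threshold over all miRNAs, at adjusted p of 0.0521 to 0.142. Of the 9 alternative settings the call held in 2 and was lost in 7, at adjusted p of 0.0651 to 0.229.

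The other arm of that hairpin, miR-99b-3p, has the seed of miR-99a-3p. It had 192, 155, 141, 283 and 113 CPM in healthy skin and 102, 160.1, 173, 155 and 165 CPM in hyperplastic skin, and 223, 129.8, 144, 156 and 109 CPM in papillomas and 253, 379, 193, 381 and 256 CPM in cSCC. The cSCC libraries lay above the hyperplastic ones and overlapped the others through cSCC 3, papilloma 1 and healthy 5. It was higher in cSCC than in healthy skin by 0.72 ± 0.28 (edgeR, adjusted p = 0.0355; abundant fit 1.51 ± 0.24, adjusted p = 2.5e-05) and higher than in papillomas by 0.94 ± 0.28 (edgeR, adjusted p = 0.0293; abundant fit 0.85 ± 0.24, adjusted p = 0.0119). The call against healthy skin was lost without healthy 2, 3, 4 or 7 or cSCC 2, 4 or 6, at adjusted p of 0.0603 to 0.146. The call against papillomas was lost without papilloma 3, 4, 5 or 6 or cSCC 1, 2 or 4, at adjusted p of 0.0662 to 0.191. Of the 9 alternative settings, 6 kept the call against healthy skin and 2 kept that against papillomas. Between papillomas and healthy skin the value was -0.21 ± 0.28 (edgeR, adjusted p = 0.544), and in the fit to abundant miRNAs it was 0.66 ± 0.24 (adjusted p = 0.0288).

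mmu-miR-125a-5p lies under 1 kb from miR-99b-5p on the same strand, yet it fell in the tumours. It had 13059, 14482, 7939.7, 20409 and 19452 CPM in healthy skin and 6019.9, 6076, 5628, 13757 and 16185 CPM in hyperplastic skin. In papillomas it had 4659.7, 4543, 2980.3, 2963 and 2216 CPM and in cSCC 3983, 4208, 3955, 5459 and 4135 CPM. All tumour libraries lay below all healthy and hyperplastic ones, and papillomas and cSCC overlapped. The fold change against healthy skin was -2.12 ± 0.32 in papillomas (edgeR, adjusted p = 2.0e-05; abundant fit -1.26 ± 0.24, adjusted p = 3.1e-04) and -1.79 ± 0.32 in cSCC (edgeR, adjusted p = 7.1e-05; abundant fit -1.01 ± 0.24, adjusted p = 0.00122). The difference between the tumour stages was 0.32 ± 0.31 and missed the threshold (edgeR, adjusted p = 0.655). Its partner arm miR-125a-3p averaged 24.7 ± 14.1, 18.3 ± 8.54, 14.9 ± 6.15 and 23.1 ± 5.84 CPM in healthy skin, hyperplastic skin, papillomas and cSCC, and the groups overlapped.

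mmu-miR-125b-5p pools the output of 2 hairpins. It had 27636, 32102, 16640.0, 28744 and 28164 CPM in healthy skin and 12809.6, 12201, 16928, 30816 and 38374 CPM in hyperplastic skin. It had 16077, 16144, 8305, 11669.7 and 6668 CPM in papillomas and 14404, 8367, 13917, 14672 and 10625 CPM in cSCC. The tumour libraries lay below the healthy ones, with healthy 4 only just above papillomas 1 and 3, and hyperplastic 7 and 8 stood above the other hyperplastic libraries. Over 866 miRNAs the fold change against healthy skin was -1.18 ± 0.32 in papillomas (edgeR, adjusted p = 0.00481) and -1.10 ± 0.32 in cSCC (edgeR, adjusted p = 0.00599). Over abundant miRNAs these were -0.35 ± 0.23 (adjusted p = 0.223) and -0.34 ± 0.23 (adjusted p = 0.205), past no threshold. Between cSCC and papillomas the value was 0.07 ± 0.31 (edgeR, adjusted p = 0.943), with a sign that turned between settings.

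miR-125b-1-3p, the arm that marks the miR-125b hairpin on chromosome 9, went the other way from miR-125b-2-3p. It had 11.9, 3.04, 6.33, 15.0 and 19.3 CPM in healthy skin and 3.92, 5.17, 3.67, 13.0 and 15.4 CPM in hyperplastic skin, and 25.7, 16.3, 15.0, 19.3 and 5.50 CPM in papillomas and 44.3, 24.9, 40.4, 29.9 and 11.9 CPM in cSCC. These rest on 9 to 114 counts per library, and cSCC and healthy skin overlapped only through cSCC 6. It was higher in cSCC than in healthy skin by 1.45 ± 0.47 (edgeR, adjusted p = 0.0140), a call lost without healthy 3 or healthy 4, at adjusted p of 0.0641 and 0.055. In papillomas the difference from healthy skin was 0.57 ± 0.48 (edgeR, adjusted p = 0.332), and between cSCC and papillomas it was 0.88 ± 0.47 (edgeR, adjusted p = 0.297).

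**Figure D2:**
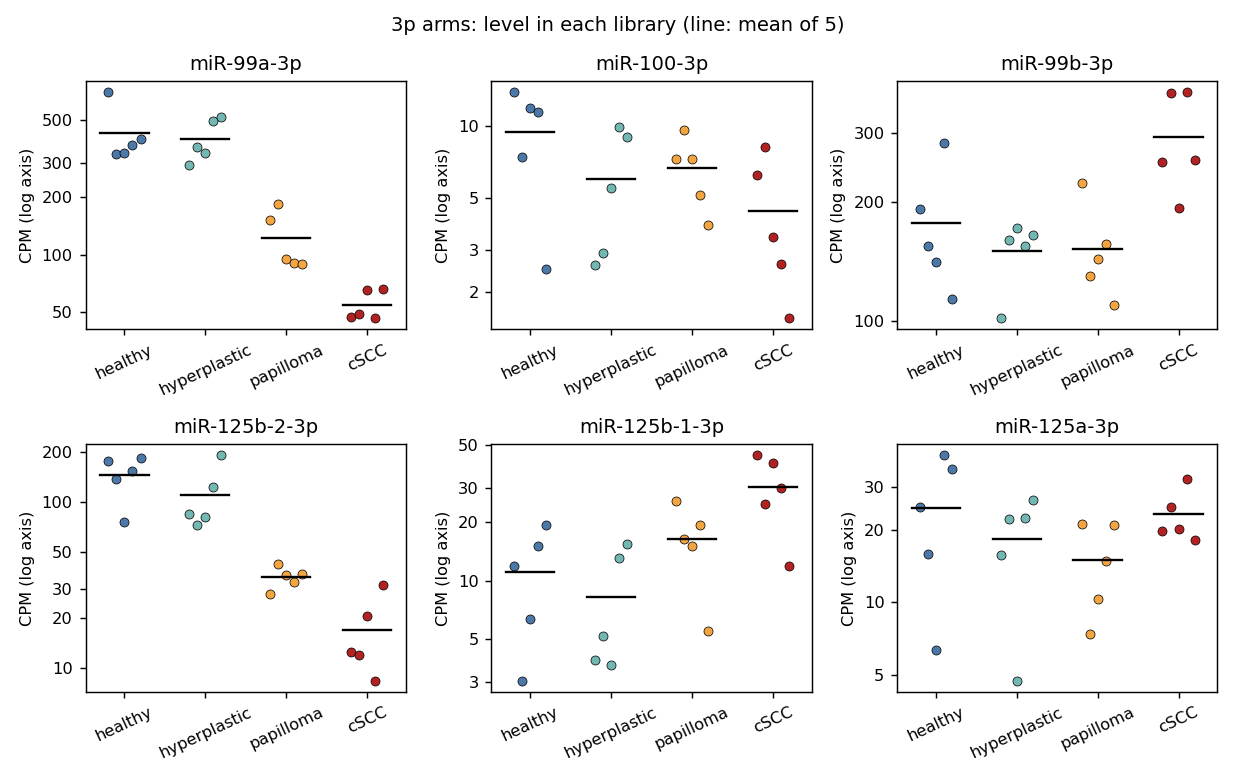
Levels in CPM (log axis) of the 6 members from 3p arms in each of the 20 libraries, by stage; points are libraries and lines the mean of 5. miR-99a-3p and miR-125b-2-3p step down through papilloma and cSCC, while miR-99b-3p and miR-125b-1-3p are highest in cSCC and miR-100-3p and miR-125a-3p overlap between groups.

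**Figure D3:**
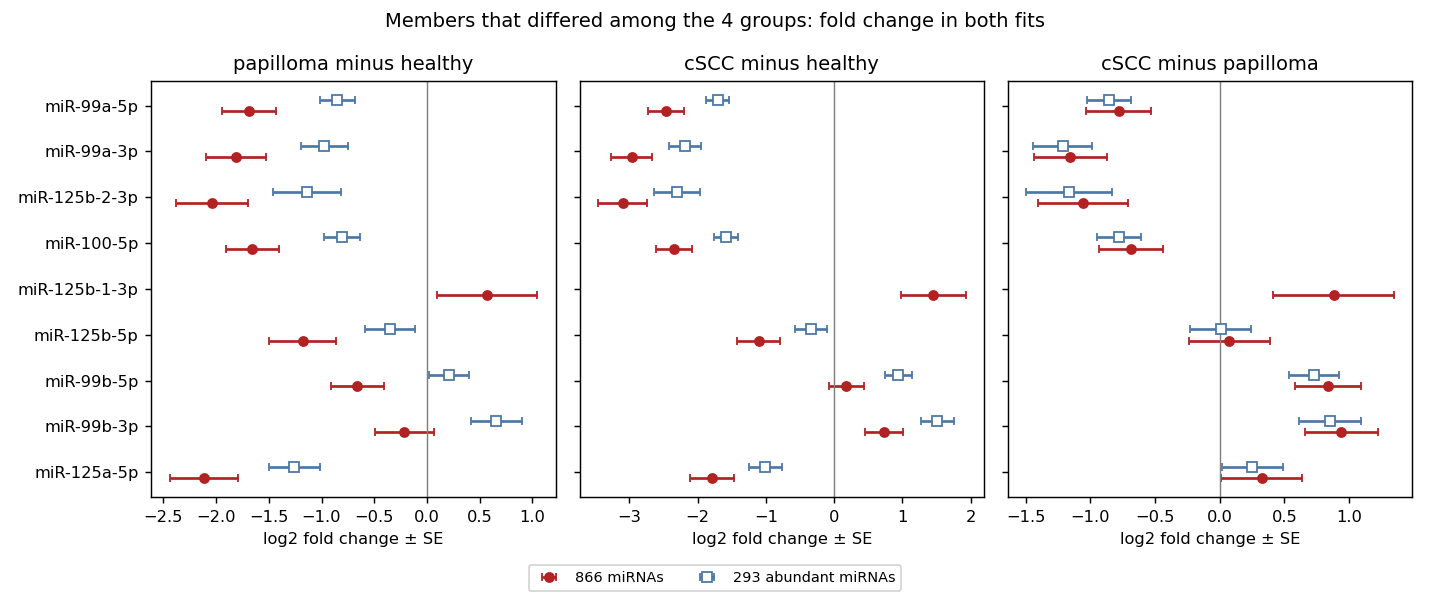
Log2 fold change ± SE of the 9 members that differed among the 4 groups over 866 miRNAs, in 3 comparisons, from the fit to 866 miRNAs (filled circles) and the fit to 293 abundant miRNAs (open squares); miR-125b-1-3p is not in the second fit. The scaling shifts the comparisons with healthy skin to the right without changing the order of the members, and moves cSCC minus papilloma little.

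Ratios of 2 members counted in the same library do not depend on the scaling between libraries. For the 8 ratios tested, p-values are from the exact two-sided permutation test of 5 against 5 libraries, which cannot go below 0.00794, adjusted over 48 tests. The log2 ratio of miR-99a-5p to miR-99b-5p, same seed but different loci, was 4.49, 5.04, 4.68, 4.51 and 3.47 in healthy skin and 4.34, 4.48, 3.99, 4.41 and 4.72 in hyperplastic skin. It was 3.23, 4.06, 3.40, 3.17 and 2.94 in papillomas and 1.70, 1.50, 2.29, 1.54 and 1.71 in cSCC. Every cSCC library lay below every library of the other 3 groups. In linear terms miR-99a-5p had a geometric mean of 21.7 counts per count of miR-99b-5p in healthy skin, 21.0 in hyperplastic skin, 10.3 in papillomas and 3.36 in cSCC. The log2 difference was -2.69 between cSCC and healthy skin and -1.61 between cSCC and papillomas (exact permutation, adjusted p = 0.0293 for each). Between papillomas and healthy skin it was -1.08 (exact permutation, adjusted p = 0.0448), a call lost without any 1 of 9 libraries (all but healthy 7), at adjusted p of 0.0508 to 0.0802. The call between cSCC and papillomas was lost without any 1 papilloma, at 0.0508 to 0.0586, and that between cSCC and healthy skin held without any 1 library. With 4 libraries against 5 the exact test cannot go below 0.0159 before adjustment. Of all counts of the 5p arms with this seed, miR-99b-5p made up 4.43 ± 1.92% in healthy skin, 4.38 ± 0.78% in hyperplastic skin, 8.62 ± 2.05% in papillomas and 22.1 ± 3.54% in cSCC (SD, n = 5 each).

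The neighbours miR-99b-5p and miR-125a-5p parted from each other. Their log2 ratio was -2.38, -3.04, -2.23, -3.14 and -2.46 in healthy skin and -2.07, -2.11, -1.35, -2.45 and -2.91 in hyperplastic skin. It was -1.22, -1.87, -1.40, -0.80 and -0.66 in papillomas and -0.71, -0.89, -0.83, -0.73 and -0.38 in cSCC. All tumour libraries lay above all healthy ones. The ratio was higher by 1.46 in papillomas and by 1.94 in cSCC than in healthy skin (exact permutation, adjusted p = 0.0293 each; for papillomas 0.0508 to 0.0586 without any 1 papilloma). The geometric mean was 0.159 counts of miR-99b-5p per count of miR-125a-5p in healthy skin, 0.221 in hyperplastic skin, 0.439 in papillomas and 0.612 in cSCC.

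The ratio of miR-100-5p to miR-99a-5p, which come from separate chromosomes, passed the threshold in none of the 6 comparisons. The geometric mean was 0.0581, 0.0540, 0.0600 and 0.0634 counts of miR-100-5p per count of miR-99a-5p in healthy skin, hyperplastic skin, papillomas and cSCC. The groups overlapped, and the log2 difference between cSCC and healthy skin was 0.13 (exact permutation, adjusted p = 0.533).

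miR-99a-5p also fell relative to miR-125b-5p, whose counts pool the hairpin of the miR-99a locus and the one on chromosome 9. The geometric mean ratio was 1.90 in healthy skin, 1.99 in hyperplastic skin, 1.36 in papillomas and 0.731 in cSCC. cSCC libraries lay below all others, by -1.38 on the log2 scale against healthy skin (exact permutation, adjusted p = 0.0293). Within the miR-125 family the ratio of miR-125b-5p to miR-125a-5p was 1.82 in healthy skin, 2.33 in hyperplastic skin, 3.32 in papillomas and 2.81 in cSCC. It was higher in papillomas than in healthy skin by 0.87 with no overlap (exact permutation, adjusted p = 0.0293; 0.0508 to 0.0586 without any 1 papilloma), and the difference of 0.62 in cSCC missed the threshold (exact permutation, adjusted p = 0.0693).

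miR-99a-5p and miR-99a-3p, arms of 1 hairpin, changed in ratio past the threshold against hyperplastic skin and not against healthy skin. miR-99a-5p had a geometric mean of 120.0 counts per count of miR-99a-3p in healthy skin, 101 in hyperplastic skin, 129 in papillomas and 163 in cSCC. The difference between cSCC and healthy skin was 0.44 on the log2 scale (exact permutation, adjusted p = 0.158), and against hyperplastic skin it was 0.69 (exact permutation, adjusted p = 0.0293; 0.0508 to 0.0544 without hyperplastic 1, 2, 7 or 8). Without hyperplastic 7 and 8 together it was 0.75 (exact permutation, adjusted p = 0.0857), where 5 libraries against 3 cannot go below 0.0357 before adjustment. miR-99b-5p had 13.5, 12.7, 9.88 and 9.33 counts per count of miR-99b-3p in healthy skin, hyperplastic skin, papillomas and cSCC. The ratio of miR-125b-1-3p to miR-125b-2-3p, the arms that tell the miR-125b hairpins apart, was -3.89, -5.41, -3.54, -3.35 and -3.24 on the log2 scale in healthy skin and -4.40, -3.79, -4.42, -3.24 and -3.63 in hyperplastic skin. It was -0.12, -1.36, -1.26, -0.77 and -2.68 in papillomas and 1.82, 1.04, 0.97, 1.81 and -1.39 in cSCC. No tumour library overlapped healthy or hyperplastic skin, and cSCC 6 lay among the papillomas. In linear terms the geometric mean was 0.0677, 0.0673, 0.423 and 1.80 along the stages. The miR-99b arm ratio and the miR-125b hairpin ratio were chosen after their values were seen and carry no test.

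**Figure D4:**
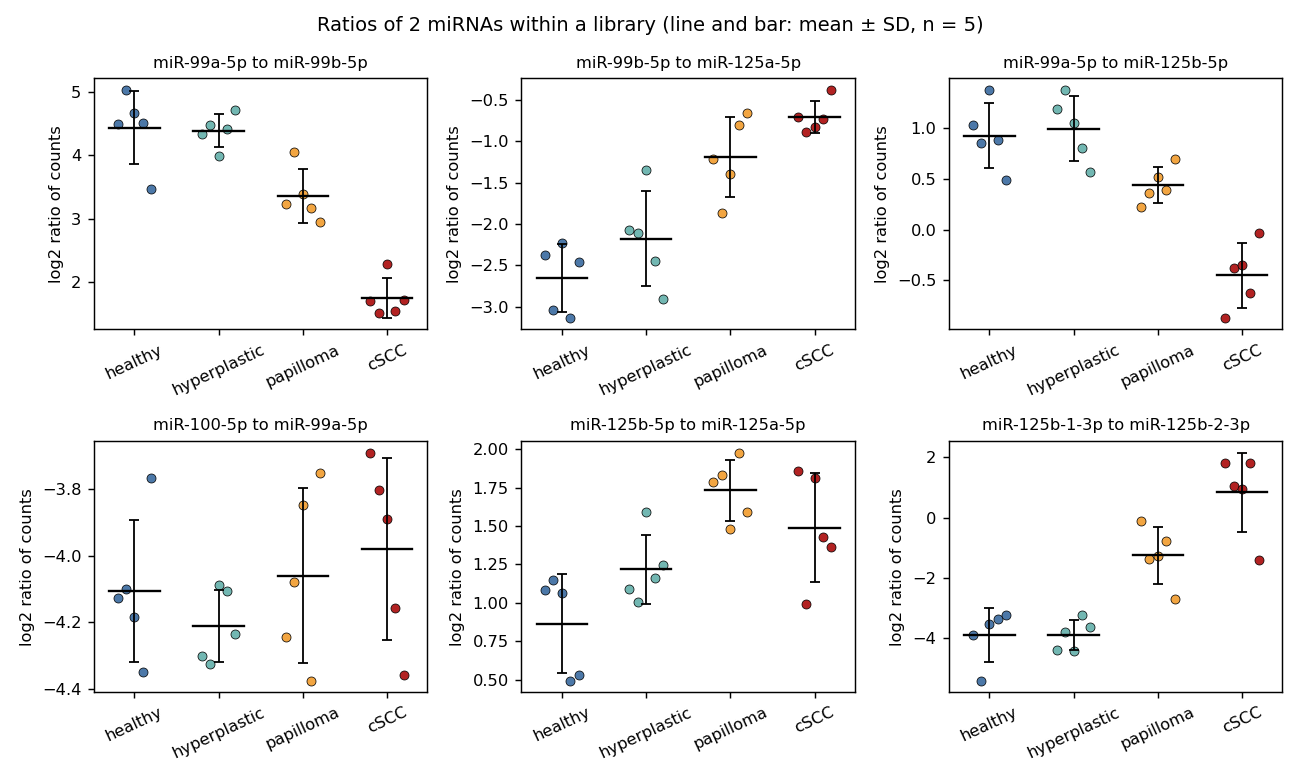
Log2 ratio of counts of 2 members within a library, for 6 ratios, by stage; points are libraries and the line and bar are the mean ± SD of 5. cSCC libraries lie below all others for miR-99a-5p to miR-99b-5p and for miR-99a-5p to miR-125b-5p, tumour libraries lie above healthy ones for miR-99b-5p to miR-125a-5p, and the groups overlap for miR-100-5p to miR-99a-5p.

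The let-7 miRNAs made from the same loci are tumour-suppressing in many settings and share the seed GAGGUAG. The list of 9 let-7 and miR-98 5p arms covers the wider family, of which only let-7a, let-7c and let-7e have a gene in these loci. Of the 9 arms, 9 were lower in papillomas and 8 in cSCC than in healthy skin (22.6% and 22.3% of all tested miRNAs). In the fit to abundant miRNAs 4 were lower in papillomas and 6 in cSCC (20.1% and 25.9% of the 293). Their median fold change was -1.35 in papillomas and -1.33 in cSCC, and -0.52 and -0.57 in the fit to abundant miRNAs. Between cSCC and papillomas 0 of the 9 passed the edgeR test, where only 8.08% of all tested miRNAs were higher and 2.66% lower. let-7 miRNAs differ by 1 or 2 bases, so their counts are uncertain one by one. let-7c-5p, which lies 732 bases from miR-99a-5p but has 2 loci in RefSeq that its counts pool, averaged 1428 ± 569 CPM in papillomas and 4341 ± 1858 CPM in healthy skin (edgeR log2 fold change -1.60 ± 0.33, adjusted p = 5.2e-04), and 1263 ± 339.5 CPM in cSCC (-1.78 ± 0.34 against healthy skin, adjusted p = 1.3e-04). In the fit to abundant miRNAs these fold changes were -0.78 ± 0.27 (edgeR, adjusted p = 0.0222) and -1.03 ± 0.27 (edgeR, adjusted p = 0.00277). The arm let-7c-1-3p, which comes from the hairpin beside miR-99a alone, averaged 13.8 ± 1.76 CPM in papillomas and 29.8 ± 5.72 CPM in healthy skin (edgeR log2 fold change -1.10 ± 0.29, adjusted p = 0.00419), and 11.7 ± 4.78 CPM in cSCC (-1.36 ± 0.30 against healthy skin, adjusted p = 5.6e-04). The ratio of let-7c-5p to miR-99a-5p was higher in cSCC than in healthy skin by 0.75 on the log2 scale, past the threshold before adjustment alone (exact permutation p = 0.0317, adjusted p = 0.0693). let-7e-5p, between miR-99b and miR-125a, averaged 159 ± 88.4 CPM in cSCC and 290.5 ± 118 CPM in healthy skin (edgeR log2 fold change -0.87 ± 0.49, adjusted p = 0.142; abundant fit -0.13 ± 0.51). cSCC 2 had only 20 counts of it, where the other cSCC libraries had 392 to 519. Its ratio to miR-99b-5p differed by -1.59 between cSCC and healthy skin (exact permutation, adjusted p = 0.0828). Its partner arm let-7e-3p differed from healthy skin by -0.69 ± 0.26 in papillomas (edgeR, adjusted p = 0.0331) and -0.50 ± 0.25 in cSCC (edgeR, adjusted p = 0.109). The rare arm let-7a-2-3p of the miR-100 locus did not pass the threshold, at -0.40 ± 0.42 in papillomas (edgeR, adjusted p = 0.444) and -0.15 ± 0.42 in cSCC (edgeR, adjusted p = 0.786).

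miR-351-5p, with the seed of miR-125 on the X chromosome, rose in cSCC, where against healthy skin miR-125a-5p fell in both fits and miR-125b-5p over 866 miRNAs but not over abundant ones. It had 46.6, 45.7, 41.5, 48.1 and 50.6 CPM in healthy skin and 51.4, 36.6, 27.5, 48.6 and 41.6 CPM in hyperplastic skin. It had 44.9, 31.2, 44.1, 29.3 and 30.8 CPM in papillomas and 96.1, 84.7, 196, 102 and 149 CPM in cSCC. Every cSCC library exceeded every other library. The fold change in cSCC was 1.43 ± 0.27 against healthy skin (edgeR, adjusted p = 1.1e-04; abundant fit 2.20 ± 0.26) and 1.80 ± 0.27 against papillomas (edgeR, adjusted p = 1.3e-04; abundant fit 1.69 ± 0.26). At these levels it stayed far below the miR-125 5p arms, which summed to 16745 ± 3031 CPM in cSCC and 41726 ± 10106 CPM in healthy skin (SD, n = 5 each). miR-351-5p met the limit of 50 CPM only through cSCC, where its mean was 126 CPM. Its means were 46.5, 41.2 and 36.0 CPM in healthy skin, hyperplastic skin and papillomas. The fit to abundant miRNAs is thus no separate support for its rise.

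The non-members with the most similar course were found by the root mean square distance between centred log2 group means over the 4 groups, among 287 miRNAs. For miR-99a-5p they were miR-378-3p (distance 0.0186), miR-10b-5p (0.072) and miR-101b-3p (0.0833). For miR-100-5p they were miR-199b-5p (0.0689), miR-378-3p (0.0895) and miR-101b-3p (0.0989). miR-10b-5p is on the fibroblast marker list below, and miR-199b-5p is a relative of its miR-199a arms, while miR-378-3p and miR-101b-3p are on no marker list. miR-10b-5p had centred means of -0.65 in papillomas and -1.39 in cSCC. The 6 fibroblast markers, miR-10b-5p among them, had a median log2 fold change of 0.19 between these stages. Of the 6, 0 passed the edgeR test, where only 8.08% of all tested miRNAs were higher and 2.66% lower in cSCC. The part of fibroblasts in these courses was not tested. For miR-99b-5p they were miR-183-5p (0.089), miR-182-5p (0.12), which share a cluster, and miR-130b-3p (0.122). For miR-125a-5p they were miR-29c-3p (0.0835), miR-328-3p (0.123) and miR-26b-5p (0.131), and for miR-125b-5p miR-425-5p (0.02), miR-140-5p (0.0328) and miR-22-5p (0.0634). Among the members miR-99a-5p and miR-100-5p lay 0.0839 apart, and miR-99a-5p and miR-99b-5p 1.09. These distances rest on 4 group means and carry no test.

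Muscle, endothelial and most fibroblast markers were lower in both tumour stages than in healthy skin, where 22.6% of the 866 miRNAs were lower in papillomas and 22.3% in cSCC. Other marker lists went differently. Marker counts and medians are from the fit to 866 miRNAs alone, and sums use its scaling. Biopsies hold many cell types, so that fewer cells of a type and less RNA per cell cannot be told apart. The 4 striated muscle miRNAs summed to 19958 to 86828 CPM in healthy skin, 1701 to 8340.3 CPM in papillomas and 1658 to 3557 CPM in cSCC, and 4 of 4 were lower in each tumour stage. The smooth muscle list (4 miRNAs, 4 lower in each tumour stage) summed to 53758 to 120828 CPM in healthy skin, 15757 to 23796 CPM in papillomas and 14885 to 25891 CPM in cSCC. The endothelial pair, both lower in each tumour stage, summed to 23649 to 47375 CPM in healthy skin, 8909 to 14520.4 CPM in papillomas and 9422 to 19239.8 CPM in cSCC. Of the 6 fibroblast miRNAs 4 were lower in each tumour stage, with sums of 26507 to 66831 CPM in healthy skin, 14224 to 20323 CPM in papillomas and 7736 to 22537 CPM in cSCC. Between cSCC and papillomas 0 miRNAs of these 4 lists passed the edgeR test, where 2.66% of all tested miRNAs were lower and 8.08% higher. The median log2 fold change was -0.90 for striated muscle, -0.06 for smooth muscle, 0.38 for endothelium and 0.19 for fibroblasts.

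Leukocyte markers summed to 20866 to 39199 CPM in healthy skin, 13589 to 58804 CPM in papillomas and 49674 to 116291 CPM in cSCC, with miR-223-3p the most abundant. Of these 5 markers 2 were higher and 0 lower in cSCC than in papillomas (8.08% and 2.66% of all tested miRNAs). In cSCC 1 was higher and 1 lower than in healthy skin (25.1% and 22.3% of all), and in papillomas 0 were higher and 2 lower (16.5% and 22.6% of all). The keratinocyte pair miR-203-3p and miR-205-5p was abundant in every library of this skin tissue and summed to 164869 to 262922 CPM in healthy skin, 100592 to 182439 CPM in papillomas and 69888 to 139134 CPM in cSCC. Of that pair 2 were lower in cSCC and 0 in papillomas than in healthy skin (22.3% and 22.6% of all), and 1 was lower in cSCC than in papillomas (2.66% of all; median log2 fold change -0.79). Both melanocyte markers were lower in cSCC than in papillomas and healthy skin (2.66% and 22.3% of all), with sums of 771 to 2201 CPM in healthy skin, 194 to 784 CPM in papillomas and 66.5 to 153 CPM in cSCC. The 3 erythroid miRNAs passed no comparison. No marker was at 0 in any library, and the part of these cell types in the members' changes was not tested.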

How the data were processed

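Total RNA from 20 skin biopsies was extracted with the Qiagen miRNeasy kit, and small RNA libraries for the SOLiD sequencer were size-selected on gels, per the labels' protocols. The deposited table holds raw read counts per small RNA feature, and the genome build was mm9 per the submitters' processing notes. The aligner, the counter and the handling of reads that match several places were not given in the sources used here. Columns were assigned to samples through the titles, and samples to groups through the titles and labelled disease state. Features of type miRNA were filtered by group with filterByExpr (minimum count 10), scaled with TMM and fitted in edgeR 4.0.16 (R 4.3.3, limma 3.58.1), with 1 term per group over 20 libraries, by the quasi-likelihood test, two-sided, with Benjamini-Hochberg adjustment. Depth, TMM factors (0.583 to 1.71) and the fit itself thus rest on all miRNAs, not on the members. The factors differed by stage, at 0.583 to 0.986 in healthy skin, 0.712 to 1.22 in hyperplastic skin, 1.10 to 1.71 in papillomas and 0.834 to 1.19 in cSCC. Those of healthy skin and papillomas did not overlap. Alternatives were DESeq2 (version 1.42.0) size factors and Wald test, unscaled totals, no low-count filter, abundant miRNAs (at least 50 CPM), a replicate block, pairs of groups alone, all small RNA features and each library left out. Fits to mature miRNAs alone, and fits and ratios without hyperplastic 7 and 8, were added after seeing the data. Ratios are log2 with 0.5 added to both counts, tested with scipy 1.17.1 by exact permutation. Scripts were tested on simulated data. The members, marker and let-7 lists and ratios were chosen with earlier results of these data known. Named are all members, the let-7 miRNAs of their loci, relatives with a 5p seed and, for each 5p arm, the 3 miRNAs of at least 50 CPM nearest in pattern. Replicate numbers in the labels were not used to pair samples.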

Additional observations from a re-analysis of the deposited data

Results flagged for a closer look

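Among 76 groups of 5 libraries, 1 library stood apart from its group in 7, where chance gives about 1 in 20. The gap to the nearest library took more than 0.71 of the group's range. Healthy 4 had the lowest miR-125b-5p of its group, at 16640 CPM, against 27636 to 32102 CPM in the other healthy libraries. cSCC 4 had the highest miR-125a-5p of its group, at 5459 CPM, where the others had 3955 to 4208 CPM. Healthy 2 had the highest miR-99a-3p of the healthy libraries, at 700.1 CPM, and the others had 333 to 401 CPM. Hyperplastic 1 had the lowest miR-99b-3p of its group, at 101.6 CPM, with 155 to 173 CPM in the others. The log2 ratio of miR-99a-5p to miR-99b-5p was highest in cSCC 3 among the cSCC libraries, at 2.29, with 1.50 to 1.71 in the others. The log2 ratio of miR-99a-5p to miR-99a-3p was highest in papilloma 5, at 7.41, with 6.81 to 6.96 in the other papillomas. The log2 ratio of let-7e-5p to miR-99b-5p was lowest in cSCC 2, at -8.01, with -3.91 to -3.59 in the other cSCC libraries.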

How the results depend on the processing

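The falls of miR-99a-5p, miR-99a-3p, miR-100-5p, miR-125a-5p and miR-125b-2-3p in both tumour stages against healthy skin passed the threshold in all settings tried, while the counts of members that were higher did not hold. Members higher in cSCC than in healthy skin numbered 2, but 1 with DESeq2 size factors and with its Wald test and 0 with no low-count filter. Members higher in cSCC than in papillomas numbered 2, but 1 with the Wald test and 0 with DESeq2 size factors, unscaled totals, no filter, the pair of groups alone, all small RNA features and mature miRNAs alone. Members higher in papillomas than in healthy skin numbered 0, but 2 with unscaled totals, where 49.2% of all tested miRNAs were higher, and 1 over abundant miRNAs, where 29.4% were. Members higher in papillomas than in hyperplastic skin numbered 0, but 1 with unscaled totals, over abundant miRNAs, with the pair of groups alone, with all small RNA features and without hyperplastic 7 and 8. Members higher in cSCC than in hyperplastic skin numbered 2, but 1 with no filter and without hyperplastic 7 and 8. Over the settings tried the share of all tested miRNAs that were higher ran from 12.5 to 36.9% for cSCC minus healthy, 3.22 to 13.0% for cSCC minus papilloma, 8.31 to 49.2% for papilloma minus healthy, 3.63 to 29.8% for papilloma minus hyperplastic and 10.7 to 28.0% for cSCC minus hyperplastic. The cause of these changes was not tested.

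Signs turned for some values, among them that of miR-99b-5p for papilloma minus healthy, which had passed the threshold at -0.66. For papilloma minus healthy, miR-99b-5p was 0.19 with unscaled totals and 0.21 over abundant miRNAs, miR-99b-3p was 0.66 in both of these (adjusted p = 0.0307 and 0.0288), 0.13 with the pair of groups alone, 0.26 with all small RNA features and 0.019 with mature miRNAs alone, and miR-351-5p was 0.48 with unscaled totals, 0.50 over abundant miRNAs and 0.099 with all small RNA features. For cSCC minus healthy, miR-99b-5p was -0.066 with no filter. For cSCC minus papilloma, miR-125b-5p was -0.081 with DESeq2 size factors and with the Wald test, -0.34 with unscaled totals, -0.027 with no filter, -0.031 with the pair of groups alone and -0.087 with mature miRNAs alone, and miR-125a-5p was -0.088 with unscaled totals.

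Leaving out each library in turn, members higher in cSCC ran from 0 to 2 against healthy skin, 1 to 2 against hyperplastic skin and 0 to 2 against papillomas, and members lower in cSCC than in papillomas from 1 to 4. Of all tested miRNAs, 17.1 to 22.8%, 14.8 to 25.2% and 4.47 to 7.17% were higher in those comparisons, and 1.53 to 3.67% were lower in cSCC than in papillomas. Each of these fits was filtered and scaled anew and held 875 to 918 miRNAs instead of 866, so a lost call cannot be put down to the library alone. The value of miR-99b-5p ran from -0.036 to 0.28 for cSCC minus healthy, and that of miR-125b-5p from -0.12 to 0.14 for cSCC minus papilloma. Ratio differences that turned sign ran as follows. For papilloma minus healthy, let-7c-5p to miR-99a-5p ran from -0.064 to 0.24, miR-100-5p to miR-99a-5p from -0.032 to 0.13 and miR-99a-5p to miR-99a-3p from -0.042 to 0.23. For hyperplastic minus healthy, miR-99a-5p to miR-99b-5p ran from -0.29 to 0.10, miR-99a-5p to miR-125b-5p from -0.040 to 0.18 and let-7e-5p to miR-99b-5p from -0.48 to 0.024. For cSCC minus papilloma, let-7e-5p to miR-99b-5p ran from -1.15 to 0.18. Without hyperplastic 7 and 8 no ratio against hyperplastic skin passed the threshold, where the exact test of 5 libraries against 3 cannot go below 0.0357 before adjustment, and no difference turned sign.

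Same-numbered libraries did not deviate together: their deviations from the group means had a median correlation of -0.013 over 17 pairs, with 2 of 17 above 0.1, so the numbers were not taken to pair samples. With the replicate number as a block, 1 of 11 members was higher in papillomas than in healthy skin (8.31% of all tested miRNAs). It was also 1 in papillomas than in hyperplastic skin (4.62% of all) and 1 in cSCC than in papillomas (6.35% of all). Over all miRNAs 4 were higher and 1 lower in hyperplastic than in healthy skin. Depth limits the rare 3p arms most: miR-100-3p had 3 to 49 counts per library, where counting error alone is large.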
